A study of Mus musculus with 6 samples.

Results

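UDP-glucuronosyltransferases of the Ugt1a family and aldehyde dehydrogenases were examined in primary CD31-positive cells of mouse liver. The genes were taken by symbol from the deposited table of detectable genes: Ugt1a6a, Ugt1a6b, Ugt1a7c, Aldh3a1, Aldh1a3, Aldh3a2 and Aldh2. All 7 were present among its 13595 genes, and the 3 Ugt1a genes are also given as a sum, called the Ugt1a sum. CD31 is a surface protein of endothelial cells, by which the cells had been selected before culture. The series asks how the response of these cells to activation of the aryl hydrocarbon receptor (AHR) in hypoxia depends on sex.

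Both groups were C57BL6/J mice aged 4 weeks. Both received 100 µM indoxyl sulfate, a tryptophan-derived solute that activates AHR, together with 6 hours of hypoxia and nutrient deprivation. The groups differ in the label of sex, with 3 libraries labelled male and 3 labelled female, numbered 4, 5 and 6 in each. No vehicle-treated or normoxic library was analysed here, so the values are levels under treatment and not responses to it. No source used here says whether the numbers stand for mice, pools or wells, and p-values measure the spread between these libraries, which may be technical.

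AHR is a transcription factor that, once bound by a ligand, pairs with ARNT and switches on a set of enzymes known as the AHR gene battery. Ugt1a6 and Aldh3a1 are classical members of that battery. UGT1A enzymes attach glucuronic acid to phenols, bilirubin and many drugs, which makes them soluble for excretion. Aldehyde dehydrogenases oxidise aldehydes to acids and use NAD or NADP to do so.

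The Ugt1a genes form 1 locus on chromosome 1 in which each gene has its own promoter and first exon and all join the same later exons. The sequences around the join show why reads are hard to assign to a single gene. The last 30 bases of the first exon are printed in lower case and the first 30 bases of exon 2 in capitals, from the GENCODE M21 (GRCm38) transcripts Ugt1a6a-201, Ugt1a6b-201 and Ugt1a7c-201.
Ugt1a6a: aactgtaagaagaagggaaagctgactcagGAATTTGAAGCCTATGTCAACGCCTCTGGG
Ugt1a6b: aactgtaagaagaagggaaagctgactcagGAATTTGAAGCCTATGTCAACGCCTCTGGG
Ugt1a7c: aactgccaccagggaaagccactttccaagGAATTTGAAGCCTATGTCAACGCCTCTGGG
Exon 2 was identical in the 3 transcripts, and so was the whole of their shared later sequence of 1311 bases. The first exon ends of Ugt1a6a and Ugt1a6b were also the same. Ugt1a7c ended its first exon with a different sequence.

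Over the coding part of the first exon, 858 bases in each gene, Ugt1a6a and Ugt1a6b were 97.0% identical and differed at 26 bases. Ugt1a7c was 60.3% identical to either. The stretch of 60 bases with the most differences between Ugt1a6a and Ugt1a6b is printed with the differing bases in capitals. It covers positions 296 to 355 of the coding sequence, counted from 1 at the first base of the start codon.
Ugt1a6a: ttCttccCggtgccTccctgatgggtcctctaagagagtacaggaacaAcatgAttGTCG
Ugt1a6b: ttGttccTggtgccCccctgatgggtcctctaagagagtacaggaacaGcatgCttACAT
Of the 26 differences, 9 fall in this window. Of the 50-base stretches of each first exon, 94.5% for Ugt1a6a, 48.3% for Ugt1a6b and 1.39% for Ugt1a7c also occurred in another gene's transcripts. Over the whole transcript the shares were 97.7%, 78.6% and 40.9%. The split between the Ugt1a6 genes is thus the least certain, and the sum does not depend on it. In GENCODE M21 the last exon of Ugt1a7c-201 also runs 1005 bases beyond those of Ugt1a6a-201 and Ugt1a6b-201. The 4 aldehyde dehydrogenases shared 0% of their 50-base stretches with any other gene's transcripts. A gene on the other strand overlaps exons of Ugt1a6a, Ugt1a6b and Ugt1a7c (Gm20528), and another overlaps Aldh2 (Gm42879). Whether strand was used in counting is not given in the sources used here.

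The RefSeq promoter table (GRCm38.p6) held 3 of the 7 genes: Ugt1a7c, Ugt1a6a and Aldh3a2. The 250 bases before each start are printed because the first 2 feed the same later exons from separate starts, and the third belongs to the 1 gene that was higher in the libraries labelled female. They lie at chr1:88094751-88095000 (plus strand), chr1:88134559-88134808 (plus strand) and chr11:61267187-61267436 (minus strand). Capitals mark GCGTG, the core bound by AHR with ARNT and also open to hypoxia-inducible factors, and ACGTG, the other core of those factors, on either strand.
Ugt1a7c: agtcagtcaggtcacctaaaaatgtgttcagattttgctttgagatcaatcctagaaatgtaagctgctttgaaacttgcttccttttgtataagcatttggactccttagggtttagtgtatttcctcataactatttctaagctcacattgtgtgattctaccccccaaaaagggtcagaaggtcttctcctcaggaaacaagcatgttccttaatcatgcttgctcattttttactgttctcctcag
Ugt1a6a: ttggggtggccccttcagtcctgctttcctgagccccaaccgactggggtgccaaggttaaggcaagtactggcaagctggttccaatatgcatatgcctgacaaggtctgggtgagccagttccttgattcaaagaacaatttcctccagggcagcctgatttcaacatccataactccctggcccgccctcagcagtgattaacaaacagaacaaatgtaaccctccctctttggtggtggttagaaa
Aldh3a2: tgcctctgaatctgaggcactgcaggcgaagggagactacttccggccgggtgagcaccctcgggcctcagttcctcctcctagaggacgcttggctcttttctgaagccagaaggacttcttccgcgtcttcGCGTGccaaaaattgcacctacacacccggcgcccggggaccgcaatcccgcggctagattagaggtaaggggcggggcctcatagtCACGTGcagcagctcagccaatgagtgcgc
Aldh3a2 held GCGTG 117 bases before its start, within the longer form TNGCGTG. It also held CACGTG, which reads as ACGTG on both strands, with the 2 matches overlapping. The Ugt1a7c and Ugt1a6a windows held neither core, and no window held TGACNNNGC, the core of the antioxidant response element. Among 32851 promoter windows of the same length, 28.2% held GCGTG on either strand, 4.10% TNGCGTG, 16.6% ACGTG and 10.2% TGACNNNGC. A match describes letters only, and windows of this length leave out more distant elements.

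Between 22303270 and 31189363 reads per library fell on the listed genes. Going against their label, the libraries labelled female carried reads of 4 Y-linked genes, while Xist was at 234 to 324 against 0.124 to 0.458. Means of Ddx3y and Uty stood at 91.5% and 89.6% of those in the libraries labelled male, with overlapping groups. Eif2s3y and Kdm5d stood at 51.3% and 54.8%, without overlap. Each direction below rests on the labels. Libraries of a group differed by a median of 0.0744 to 0.112 on the log2 scale, except that male 4 differed from male 5 and male 6 by 0.186 and 0.185. Libraries of different groups differed by 0.456 to 0.477. Marker genes of cell types moved with the groups. Over all 12568 tested genes 34.6% were called in each direction, so a count of called markers alone sets no cell type apart. The 13 endothelial markers summed to 2386 to 2504 in the libraries labelled male and 1220 to 1275 in those labelled female, with 10 of 12 tested called lower and 1 higher. Cdh5, Emcn and Eng made up most of the female-label sum. The median log2 fold change of the 12 was -2.23, and Pecam1, which encodes CD31, stood at 18.2% and Vwf at 1.30% of their male-label means. Among 6 sinusoidal endothelial markers, Stab2, Clec4g and Fcgr2b were at or near 0 in every library, and the list's sum of 489 to 528 against 7.08 to 8.84 was mostly Lyve1. The 5 mesothelial markers summed to 17.7 to 21.3 against 361 to 401, most of it Msln (17.1 to 20.6 against 299 to 358, called higher). Upk1b, Wt1 and Upk3b passed the filter only through the libraries labelled female, so their calls add no support. Vwf, and Lum of the fibroblast list, passed it only through the libraries labelled male, and their calls as lower add none either. The 11 fibroblast, stellate and mural markers summed to 1994 to 2547 against 2280 to 2679, with 7 of 10 tested lower and 3 higher. Those similar sums hold large opposite differences: Acta2 was at 45.9 to 134 against 1513 to 1887, and Col3a1 at 1115 to 1553 against 205 to 242. Cholangiocyte-listed genes (Krt19, Krt7, Epcam, Sox9, Spp1 and Cftr) summed to 1643 to 2492 against 512 to 613, with 4 of 5 tested lower. Krt7 was higher (1.30 to 2.61 against 8.31 to 10.9), and Epcam was near 0. The 8 hepatocyte markers summed to at most 8.26 in any library, with albumin (Alb) at most 0.600, and the 1 tested, Apob, was called higher at 0.664 to 1.87 against 1.66 to 7.84, passing the filter mostly through the libraries labelled female. The 5 macrophage markers summed to 7.30 to 9.49 against 11.8 to 14.1, with both tested (Cd68 and Csf1r) higher and Marco, Vsig4 and C1qa at or near 0. The lymphocyte list held only Ptprc, at 0 against 0.142 to 0.332.

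**Figure D1:**
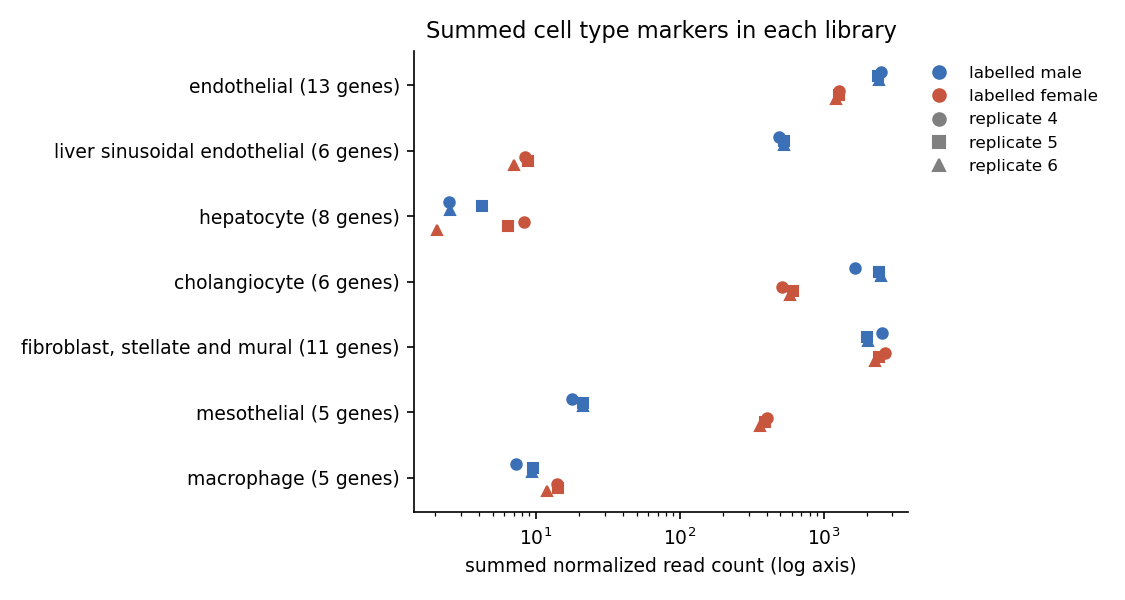
Summed normalized read counts of marker genes for 7 cell types (log axis), 1 point per library, coloured by the labelled sex and shaped by replicate number. Endothelial sums were 2386 to 2504 (male label) and 1220 to 1275 (female label), although the median log2 fold change of the 12 tested endothelial markers was -2.23, and mesothelial sums 17.7 to 21.3 and 361 to 401.

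The part of these marker differences in the results below was not tested. In bulk RNA, fewer cells of a type and less RNA per cell cannot be told apart.

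Of the 7 genes, 6 passed the filter of a normalized read count of at least 1 in at least 3 libraries. In the limma fit over all 12568 genes that passed it, 5 of these 6 were lower and 1 was higher in the libraries labelled female, at a Benjamini-Hochberg adjusted p under 0.05. In each direction, 34.6% of all tested genes were called, and in either direction 69.3%, so a call alone sets no gene apart here. The median log2 fold change of the 6 was -1.71, against 0.01 over all genes tested. Of the 6, 3 are Ugt1a genes with the same later exons, so they are not independent and weigh on this median and on the count of lower genes. The genes were also chosen with earlier results of these data known, so the median is a description. Values did not overlap between the groups for any of the 7 genes, lower for 6 and higher for 1. Over all tested genes 37.0% were lower without overlap and 37.1% higher.

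**Figure D2:**
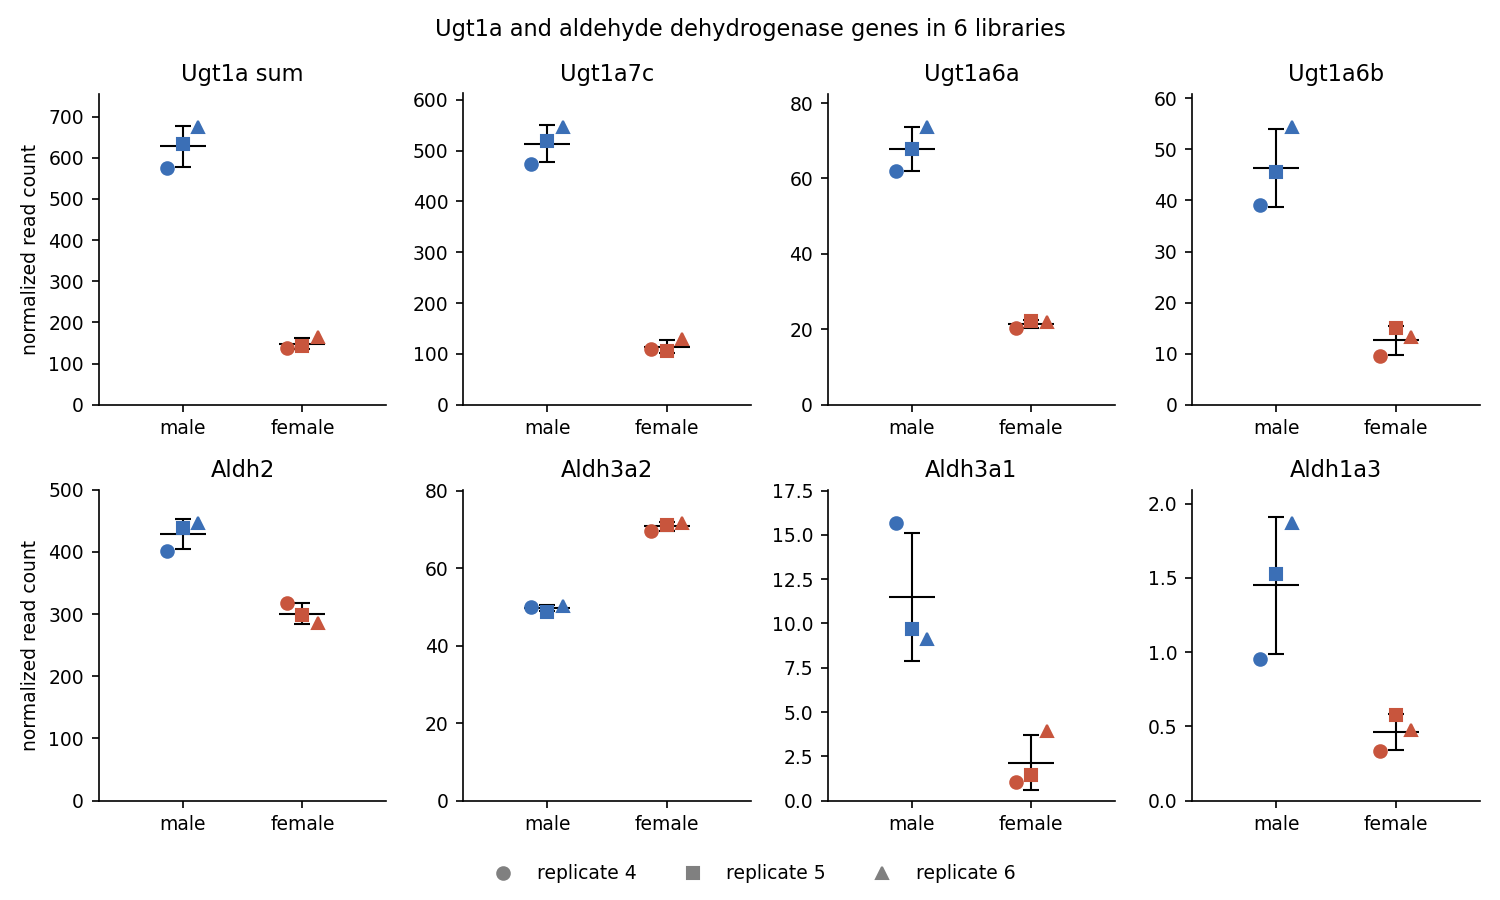
Normalized read count in each of the 6 libraries for the Ugt1a sum and the 7 genes, with the mean and SD of each group (n = 3) in black. Each panel has its own axis from 0. The Ugt1a sum lay at 575 to 675 in the libraries labelled male and 138 to 164 in those labelled female, and Aldh3a2 was the gene with the higher female values.

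The Ugt1a sum was lower in every library labelled female. It stood at 575, 632 and 675 in male 4, 5 and 6 and at 138, 143 and 164 in female 4, 5 and 6. The lowest male value was thus 3.52 times the highest female value. Means were 628 ± 49.9 and 148 ± 13.3 (SD, n = 3), a level in the libraries labelled female of 23.7% of that in those labelled male. The log2 fold change was -2.07 (95% interval -2.27 to -1.88, limma adjusted p 2.84e-07, SE 0.09). Its size exceeded that of 94.8% of tested genes. Between 3244 and 19114 reads stood behind the sum in each library, so counting error was small beside the spread of libraries. No other Ugt1a row was in the table: Ugt1a1, Ugt1a2, Ugt1a5, Ugt1a8, Ugt1a9 and Ugt1a10 were not analysed here.

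Ugt1a7c, whose enzyme belongs to the phenol-conjugating branch of the family, made up most of the sum. Its normalized read count was 474, 519 and 547 in the libraries labelled male and 109, 106 and 128 in those labelled female. The log2 fold change was -2.16 (limma adjusted p 2.73e-07, SE 0.09). Ugt1a6a, which encodes a UGT1A6 enzyme for small planar phenols, was at 62.0, 67.9 and 73.7 against 20.2, 22.2 and 21.9. Its log2 fold change was -1.61 (limma adjusted p 9.44e-07, SE 0.08). Ugt1a6b, the near-copy of Ugt1a6a, was at 39.1, 45.5 and 54.4 against 9.50, 14.9 and 13.3. The log2 fold change was -1.81 (limma adjusted p 2.84e-05, SE 0.17). In each of the 3 genes male 4 was the lowest of its group and still above every library labelled female.

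The make-up of the sum differed less than its level. Ugt1a7c took 82.4%, 82.1% and 81.0% of the sum in the libraries labelled male and 78.5%, 74.1% and 78.4% in those labelled female. Ugt1a6a took 10.8%, 10.7% and 10.9% against 14.6%, 15.5% and 13.4%, again without overlap. Ugt1a6b took 6.80%, 7.19% and 8.06% against 6.87%, 10.4% and 8.16%, and here the groups overlapped. The mean share (female minus male label) differed by -4.81 percentage points for Ugt1a7c, by 3.69 for Ugt1a6a and by 1.13 for Ugt1a6b. The last was 0.159 without female 5 and 1.94 without female 4. Two-sided exact permutation tests gave p = 0.1, 0.1 and 0.4 (adjusted over the 3 shares, 0.15, 0.15 and 0.4), and 0.1 is the smallest value that 3 libraries against 3 allow. These shares depend on how reads were divided among near-identical sequences.

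**Figure D3:**
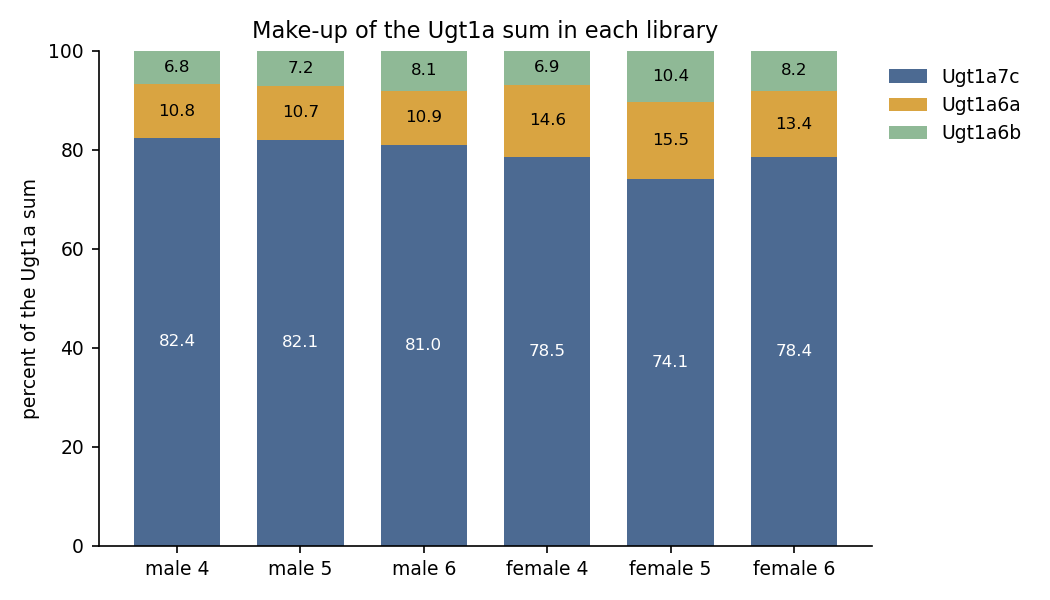
Percent of the Ugt1a sum read as Ugt1a7c, Ugt1a6a and Ugt1a6b in each library, as stacked bars from 0 to 100. Ugt1a7c took 81.0% to 82.4% in the libraries labelled male and 74.1% to 78.5% in those labelled female.

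Among the 19 other UDP-glucuronosyltransferases listed, 2 were in the table, both close to the limit of detection. Ugt2b35 held at most 3 reads in each library labelled male, against normalized read counts of 1.58, 2.21 and 1.28 in those labelled female. Set against 3 reads per male library, it was at least 14.7-fold higher. It passed the filter only through the libraries labelled female, so its call adds no support. When any female library was left out, it fell under the filter. Ugt2b34 was at 0.664, 0.724 and 0.706 against 0.083, 0.177 and 0, and missed the filter. It was called lower without the filter, with edgeR and with DESeq2.

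The supply and other use of UDP-glucuronate, the sugar donor of these enzymes, and the cleavage of glucuronides were covered by 8 listed genes, all tested. Of these 2 were called higher, 3 lower and 3 were not called, with a median log2 fold change of -0.03. Ugp2, which makes UDP-glucose, was at 203, 157 and 162 against 85.3, 83.1 and 91.9, a log2 fold change of -0.99 (limma adjusted p 4.27e-05, SE 0.10). Pgm2, a phosphoglucomutase-family gene upstream of it, was also lower (-0.79), as was Pgm1 (-0.42). Ugdh, which oxidises UDP-glucose to UDP-glucuronate, was at 599, 448 and 462 against 544, 525 and 529. Its groups overlapped, and the 95% interval of its log2 fold change ran from -0.15 to 0.34. Slc35d1, which carries UDP-glucuronate into the endoplasmic reticulum, was higher (0.70, limma adjusted p 5.60e-05). Gusb, the lysosomal enzyme that splits glucuronides, was higher by 0.32.

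The aldehyde dehydrogenases did not move together. Aldh3a1, which oxidises aromatic and medium-chain aldehydes, was at 15.7, 9.68 and 9.15 in the libraries labelled male and 1.04, 1.46 and 3.94 in those labelled female. Male 4 and female 6 stood apart from their groups: male 4 was 1.66 times the mean of male 5 and 6, and female 6 was 3.16 times the mean of female 4 and 5. The groups did not overlap. These values rest on 254 to 378 reads per library labelled male and on 25, 33 and 83 reads in female 4, 5 and 6.

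The log2 fold change of Aldh3a1 was -2.06 (limma adjusted p 0.000592, SE 0.33), with a 95% interval from -2.82 to -1.31. In linear terms the mean was 5.36 times as high in the libraries labelled male, and 9.22 times without female 6. Its relative spread among the libraries labelled female was the widest of the 7 genes, with a coefficient of variation of 73.1%, against 5.02% for Ugt1a6a. Without male 4 its log2 fold change was -1.84 and without female 6 it was -2.44.

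Aldh3a2 lies next to Aldh3a1 on chromosome 11, on the other strand, and moved the opposite way. It encodes the fatty aldehyde dehydrogenase of the endoplasmic reticulum, which handles long-chain aldehydes from sphingolipids and phytol. Its normalized read count was 50.1, 48.8 and 50.2 in the libraries labelled male and 69.6, 71.2 and 71.8 in those labelled female. The spread was small, with coefficients of variation of 1.57% and 1.61%. The log2 fold change was 0.50 (limma adjusted p 8.75e-05, SE 0.06), a level 1.42 times as high, and its size exceeded that of 53.8% of tested genes.

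Aldh2, the mitochondrial enzyme that clears acetaldehyde, was at 402, 438 and 447 against 318, 299 and 285. Every library labelled female was below every library labelled male, the nearest pair being 1.26-fold apart. The log2 fold change was -0.51 (limma adjusted p 0.000215, SE 0.07), and its size exceeded that of 54.4% of tested genes.

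Aldh1a3, which makes retinoic acid from retinaldehyde, was barely expressed. It was at 0.954, 1.53 and 1.87 in the libraries labelled male, from 23, 40 and 53 reads, and at 0.332, 0.575 and 0.475 in those labelled female, from 8, 13 and 10 reads. The groups did not overlap, and male 4 was at 56.2% of the mean of male 5 and 6. The gene missed the filter and was not tested in that fit. Without the filter its log2 fold change was -0.73 (limma adjusted p 0.00354), and edgeR's quasi-likelihood test on the recovered reads gave -1.67 (adjusted p 0.00274).

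In the authors' deposited table, the signed fold changes of female against male were -3.16 for Ugt1a6a, -3.68 for Ugt1a6b, -4.49 for Ugt1a7c, -5.36 for Aldh3a1 and -3.14 for Aldh1a3, each with a false discovery rate under 0.05. For Aldh2 (-1.43) and Aldh3a2 (1.42) the authors' deposited table gives false discovery rates of 0.132 and 0.0829. The directions were the same as those found here. The calls differed for Aldh2 and Aldh3a2, which passed 0.05 in the limma fit but not in the authors' deposited table.

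Levels were compared between genes per kilobase of the GENCODE M21 transcript chosen for each gene. In the libraries labelled male the order of mean normalized read count per kilobase was Ugt1a7c (159 ± 11.3), Aldh2 (111 ± 6.09), Ugt1a6a (29.96 ± 2.58), Ugt1a6b (20.6 ± 3.41), Aldh3a2 (16.1 ± 0.253), Aldh3a1 (6.65 ± 2.10) and Aldh1a3 (0.421 ± 0.135; SD, n = 3). In the libraries labelled female the order became Aldh2 (77.8 ± 4.32), Ugt1a7c (35.4 ± 3.74), Aldh3a2 (22.9 ± 0.369), Ugt1a6a (9.47 ± 0.476), Ugt1a6b (5.60 ± 1.24), Aldh3a1 (1.24 ± 0.908) and Aldh1a3 (0.134 ± 0.0354). No 2 neighbours in either order overlapped in their library values. Aldh2 and Ugt1a7c thus changed places at the top, and Aldh3a2 stood above both Ugt1a6 genes only in the libraries labelled female. Under the male label the gap was narrow, with the lowest Ugt1a6b value at 17.4 and the highest Aldh3a2 value at 16.2 per kilobase. The places of the Ugt1a genes also depend on how reads were divided among shared sequences. The transcripts used by the authors may have other lengths, which would shift these levels but not the comparison of a gene with itself.

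Beyond the 4 genes above, 17 further aldehyde dehydrogenases were listed, of which 14 were in the table and 13 were tested. Of the 13, 5 were called higher, 5 lower and 3 were not called, and the median log2 fold change was 0.08. Aldh1a1, a cytosolic enzyme that makes retinoic acid, was at 323, 195 and 189 in the libraries labelled male and 605, 727 and 770 in those labelled female. Its log2 fold change was 1.60 (limma adjusted p 0.000124, SE 0.20). Aldh1a7, a close relative of Aldh1a1, was at 24.2, 14.3 and 15.1 against 37.1, 36.4 and 40.9, a log2 fold change of 1.09. In both genes male 4 was the highest of its group. Smaller increases were found for Aldh4a1 of proline breakdown (0.48), Aldh16a1 (0.44) and Aldh18a1 of proline synthesis (0.36).

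The 5 lower genes were led by Aldh1l1, a cytosolic enzyme of folate metabolism, at 23.1, 28.1 and 25.6 against 5.93, 6.50 and 5.37. Its log2 fold change was -1.94 (limma adjusted p 1.50e-06, SE 0.11). Aldh3b1 (-1.06), Aldh9a1 (-0.82), Aldh5a1 (-0.43) and Aldh6a1 (-0.18) were also called lower. Fewer genes, 3, were called lower without male 5, without male 6, without female 4 or without female 6. Aldh1l2, the mitochondrial relative of Aldh1l1, was at 169, 93.8 and 94.9 against 109, 117 and 138, with overlapping groups and a 95% interval from -0.41 to 0.56. Aldh1b1 (0.27, -0.18 to 0.72) and Aldh7a1 (0.02, -0.13 to 0.17) were not called either. Aldh1a2, a further retinoic acid enzyme, had only 2, 0 and 0 reads in male 4, 5 and 6, and normalized read counts of 0.498, 1.46 and 0.712 in those labelled female, and was not tested.

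**Figure D4:**
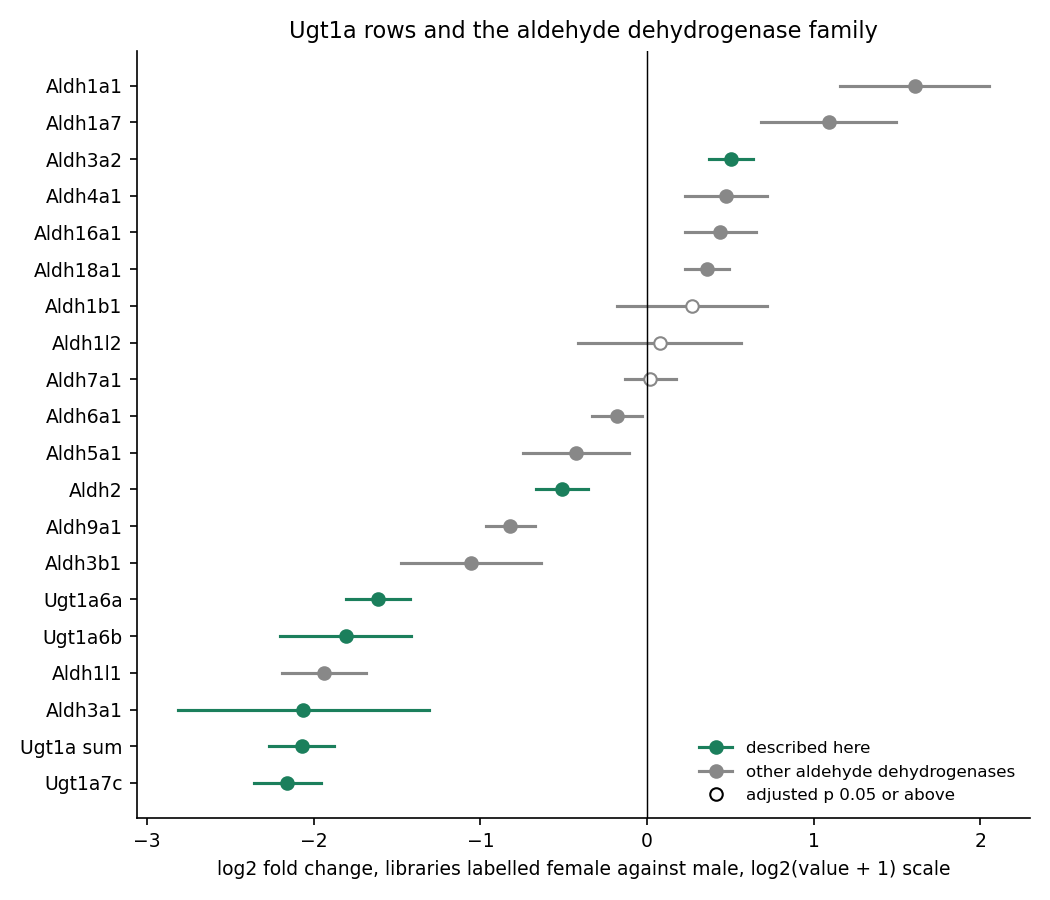
Log2 fold change of the libraries labelled female against those labelled male on the log2(value + 1) scale, with 95% intervals, for the Ugt1a genes, their sum and every tested aldehyde dehydrogenase. The Ugt1a genes lie between -2.16 and -1.61, whereas aldehyde dehydrogenases range from -2.06 (Aldh3a1) to 1.60 (Aldh1a1). Open points had an adjusted p of 0.05 or above.

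Other enzymes that reduce aldehydes and ketones or oxidise alcohols were as mixed, with 5 of 13 tested called higher, 5 lower and a median log2 fold change of 0.04. The count of lower genes was 3 without male 6. Adh1, an alcohol dehydrogenase that turns ethanol and retinol into aldehydes, was at 41.6, 62.9 and 63.1 against 0.249, 0.530 and 0.285. Its log2 fold change was -5.37. Adh1 passed the filter only through the libraries labelled male, so its call, counted among the 5 lower, adds no support. The aldose reductase Akr1b3 was higher (1.28, limma adjusted p 0.000933), at 25.0, 35.4 and 17.3 in the male-labelled libraries and 58.1, 71.6 and 57.3 in the female-labelled. Akr1c13 was also higher, by 1.23. Akr1a1, a widely expressed aldehyde reductase, was at 374, 367 and 375 against 393, 391 and 367, with a 95% interval from -0.08 to 0.17.

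Around Aldh3a2, all 6 listed genes of lipid aldehyde and sphingolipid steps were called, 2 higher and 4 lower. Over all tested genes 69.3% were called in either direction. The median log2 fold change of the 6 was -0.84. Sgpl1, which cleaves sphingosine 1-phosphate and releases a fatty aldehyde, was higher by a log2 fold change of 0.47 (limma adjusted p 0.000685), at 165, 139 and 140 against 211, 205 and 199. Sphk2 was higher by 0.53. Phyh, which starts the breakdown of phytanic acid, was at 28.9, 32.6 and 32.8 against 6.56, 6.67 and 8.03, a log2 fold change of -2.01. Sphk1 (-1.81), Sgpp1 (-1.07) and Hacl1 (-0.61) were lower.

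In the retinoic acid pathway, which Aldh1a1 and Aldh1a3 feed, 11 of 15 listed genes were tested, with 4 called higher, 6 lower and a median log2 fold change of -0.33. The count of higher genes was 3 without male 5, without male 6 or without female 6. The retinoic acid receptors differed among themselves. Rara was at 180, 158 and 166 against 34.9, 37.1 and 36.4, a log2 fold change of -2.18 (limma adjusted p 7.83e-08, SE 0.07). Rarg was also lower (-1.60), whereas Rarb was higher (0.46). Cyp26b1, which degrades retinoic acid, was higher (0.54, limma adjusted p 0.0153), at 17.5, 11.1 and 11.2 against 19.4, 18.7 and 20.0.

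The rest of the AHR battery and receptor complex split as well, with 4 of 9 tested genes higher and 5 lower (median log2 fold change -0.27, the same with Cyp1a1 set to its bound). Cyp1a1 held at most 2 reads in each library labelled male and was at least 62.3-fold higher in those labelled female, Gsta1, which has close copies, was higher by 3.19 and Tiparp was lower (-3.08). Cyp1a1 and Ahrr passed the filter only through the libraries labelled female, so their calls as higher add no support. The count of higher genes was 2 without any 1 of the libraries labelled female, because Cyp1a1 and Ahrr then fell under the filter. It was also 2 when at least 10 reads were required in every library.

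Likeness of pattern was measured as the distance between log2(value + 1) profiles over the 6 libraries, each centred on its own mean, against 8971 genes with a mean of at least 10. The 5 genes nearest to the Ugt1a sum were Gldc (distance 0.0694), Phyh (0.105), Tex2 (0.116), Tgfbr3 (0.129) and Pygl (0.145). Those nearest to Aldh3a1 were farther away, with Gbp3 at 0.498, Slfn2 at 0.515, Ifi44 at 0.532, Dtx3l at 0.537 and Peg10 at 0.593. Female 6 was the highest of its group in the Ugt1a sum, in Aldh3a1 and in all 10 of these genes, which were picked by matching those profiles. Ifi44, for example, was at 22.3, 25.9 and 55.0 in female 4, 5 and 6. With 6 libraries in 2 groups, most of each distance reflects the size of the difference between groups, and the measure is a description.

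**Figure D5:**
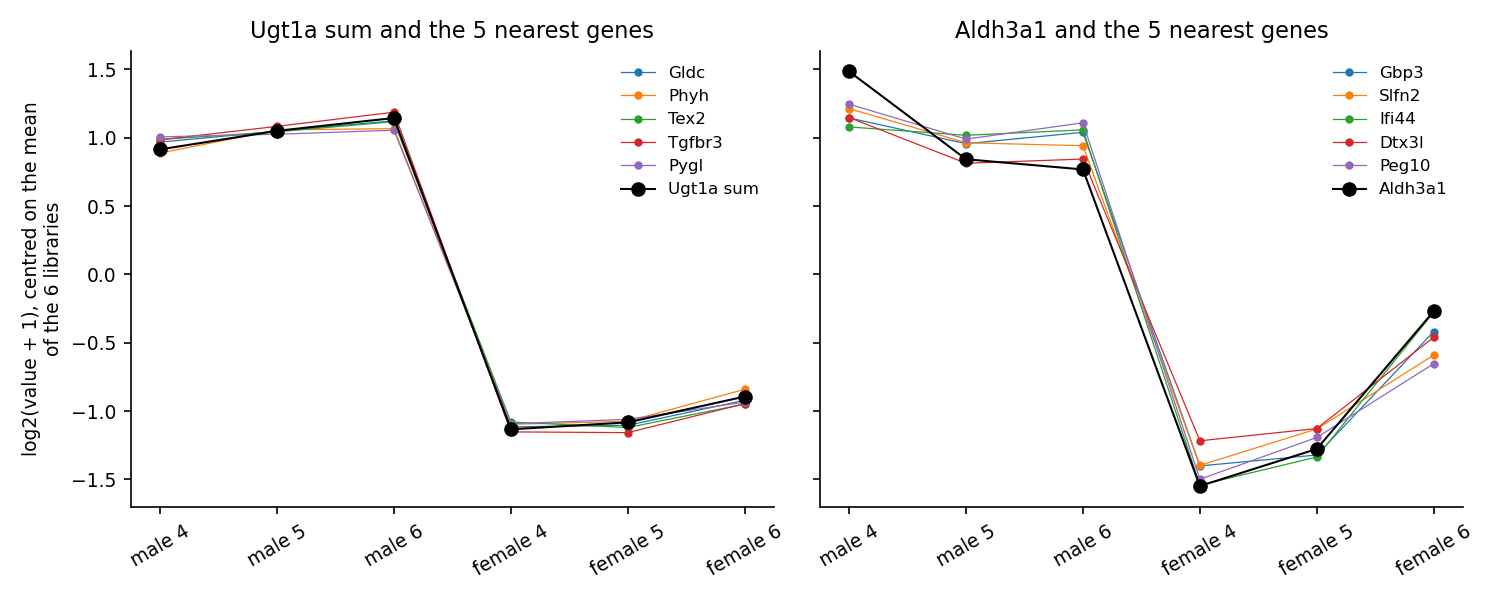
Profiles of log2(value + 1) over the 6 libraries, centred on each gene's mean, for the Ugt1a sum (left) and Aldh3a1 (right) with the 5 nearest genes of each. Thin lines join the points of 1 gene and carry no order. Gldc lies 0.0694 from the Ugt1a sum, and in both panels female 6 is the highest of its group in every gene.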

How the data were processed

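Poly(A) RNA was sequenced from 6 libraries of CD31-positive cells. Per the submitters' processing notes, Bowtie2, RSEM, edgeR and the genome build mm39 were used; versions, annotation and gene filter are not given in the sources used here. The signal in each library's column is a normalized read count made by the authors: 100% of these values were whole multiples (within 0.01) of the smallest value above 0, which gave back the reads. The signed linear fold of female against male (a score here), its p-value and its false discovery rate were computed by the authors and deposited beside them.

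The 7 genes, the gene lists and the tests were chosen with earlier results of these data known. Groups came from the labels. limma 3.58.1 (R 4.3.3, intensity trend) was fitted to log2(value + 1) for genes that reached a value of 1 in 3 or more libraries, adjusted by the Benjamini-Hochberg method over all 12568 genes, threshold 0.05; for the Ugt1a sum the 3 rows were replaced by their sum. Fold changes on this scale understate the change of low genes. Floors of 3 reads cover counting error only. Named genes were the 7, the 3 largest called changes of each list, expressed members of both families, and the 5 nearest profiles; an item that this rule names is not reported here. Genes outside that rule were named after their values were seen. Sequences came from GENCODE M21 and RefSeq (GRCm38.p6), which is not the authors' build. edgeR 4.0.16, DESeq2 1.42.0, other scalings, filters, a pseudocount of 0.1, a replicate block and leaving out each library were the alternatives. On the recovered reads edgeR called 8975 of the 13199 genes it tested, and limma 8704 of 12568. The fits were tested on simulated data.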

Additional observations from a re-analysis of the deposited data

How the results depend on the processing

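All alternatives were planned. For the 6 tested genes and the Ugt1a sum, all 99 recomputed values kept their direction and call. The authors' deposited false discovery rates, which did not call Aldh2 and Aldh3a2 at 0.05, were not among these values. With every library used, the log2 fold change of the Ugt1a sum ran from -2.09 to -2.00, of Aldh3a1 from -2.55 (pseudocount 0.1) to -1.99 (quantile normalization), of Aldh3a2 from 0.49 to 0.55 and of Aldh2 from -0.52 to -0.41. With 1 library left out, the ranges were -2.14 to -2.02, -2.44 to -1.81, 0.49 to 0.52 and -0.56 to -0.47. The sum over every Ugt1a row is the same sum, as the table held no other. Aldh1a3, not tested at first, passed the threshold as lower without a filter (-0.73), with edgeR (-1.67) and with DESeq2 (-1.67). Under the other alternatives it stayed under the filter and has no value. Over the whole table the genes called ran from 8236 to 9085, and from 7373 to 9113 with 1 library left out. Of 196 counts recomputed for the pathway lists, 16 moved by more than 1.5 times.

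Same-numbered libraries were not paired: over genes, their deviations from the group mean correlated at -0.0936, -0.0303 and -0.170. A fit that took the replicate number as a block (replicate block) called 8314 genes over the table. In it the Ugt1a sum kept -2.07 (limma adjusted p 2.15e-06) and Aldh3a1 -2.06 (limma adjusted p 0.00177), and no tested gene of the 6 lost its call. Depth limits Aldh1a3 (8 to 53 reads) and Aldh3a1 (25 to 83 reads in the libraries labelled female).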
